A study of Mus musculus with 6 samples.

Results

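The 8 genes described here, Tmem92, Chit1, Zfp352, Arg2, P4ha2, Calcoco2, Ddit4l and Cyp2b23, belong to the transcriptional programme of the 2-cell mouse embryo or have been linked to the endogenous retrovirus MERVL, and each has most of its annotated sequence to itself. They are 8 of the 41388 Ensembl gene rows in the count table. The list was drawn up from their CPM (counts scaled to a library total of 1000000) in knockout (KO) against wild-type (WT) libraries of these same data. The difference between genotypes is therefore described for these genes and not tested.

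The study compared polyadenylated RNA of mouse iPSCs, pluripotent stem cells induced from somatic cells, lacking the microRNA miR-34a (miR-34a-/-, 3 lines) with RNA from wild-type iPSCs (3 lines), all of strain C57BL/6. Lines of both genotypes came from embryonic fibroblasts of littermates at day 13.5, reprogrammed with retroviral Oct4, Sox2 and Klf4. Each line was grown from a single picked colony on irradiated fibroblast feeders, so a library can hold feeder RNA and each line stems from 1 colony. No age, passage or treatment beyond these was given in the sources used here. Libraries held between 8721581 and 29654855 counts in KO and between 8432597 and 25698286 counts in WT. Pluripotency genes were abundant in both genotypes. Pou5f1 stood at 1180 ± 81.9 CPM in KO and 870 ± 71.8 CPM in WT (SD, n = 3 each). Nanog stood at 547 ± 30.7 CPM in KO and 441 ± 6.89 CPM in WT (SD, n = 3 each). Pou5f1 encodes Oct4, so its counts could include RNA of the retroviral copy. Of 12 listed pluripotency markers, 9 were called higher in KO, 2 lower and 1 was not called (edgeR, adjusted p below 0.05). Over all tested genes, 26.5% were called higher and 24.0% lower. The miR-34a precursor had 1, 0 and 0 counts in KO libraries and 2, 0 and 0 counts in WT libraries, and counts of polyadenylated RNA at this level do not check the deletion. The Y-linked gene Eif2s3y averaged 0.0169 CPM in KO and 17.2 CPM in WT, so the sex of the lines and the genotype cannot be told apart.

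In the mouse embryo, the zygotic genome is first broadly transcribed at the 2-cell stage, when MERVL elements and a set of genes that use their long terminal repeats (MT2_Mm) as promoters come on. The transcription factor DUX binds MERVL repeats and activates these genes, and rare cells of embryonic stem cell cultures enter the same state. Many genes of this programme, such as those of the Zscan4 and Tcstv families, sit in clusters of near-identical copies, where short reads can be hard to place. A bulk library does not separate cells, so more cells in such a state and more RNA per cell cannot be told apart for any gene below.

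To see how far reads can be assigned to each gene, its annotated exons were cut into stretches of 50 bases and searched in all annotated mouse transcripts. Chit1 had 100% of its stretches to itself, and P4ha2 and Ddit4l each had 99.8%. Tmem92 had 98.1%, with the shared stretches in pseudogenes beside it. Cyp2b23 had 95.6%, and shared most with its cytochrome relatives Cyp2b19 and Cyp2b13, which together had 1 count in the KO libraries and 4 counts in the WT libraries. Zfp352 had 92.9% and shared 140 stretches with the pseudogene Zfp353-ps, which had 15 counts over the KO libraries and 0 in the WT libraries. It also shared 18 stretches with the actin regulator gene Enah, which was far more abundant, at 491, 490 and 519 CPM in KO libraries and 485, 459 and 449 CPM in WT libraries (edgeR adjusted p = 0.11). Calcoco2 had 89.9% and shared 128 stretches with the pseudogene Gm11701, which had 0 counts in KO and 4 counts in WT. Arg2 had the lowest share at 78.8%. Of its 1379 stretches, 236 were shared with Vti1b, a vesicle-fusion gene on the opposite strand, and 56 with the antisense gene Gm48780. Vti1b stood at 27.9 ± 1.27 CPM in KO and 29.1 ± 1.21 CPM in WT (edgeR adjusted p = 0.5). The search covered transcripts and not the genome, and the sources used here do not say whether counting used strand.

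Promoter sequences from RefSeq (GRCm38.p6, 250 bases before to 50 after the annotated start) were found for Zfp352, Chit1, Cyp2b23, P4ha2 and Ddit4l. Those of Zfp352, Chit1 and P4ha2 are shown for the repeat in the first and for the contrast in CG dinucleotides between the other two. The Zfp352 window lies on the plus strand at chr4:90218570-90218869. Capitals mark TAATCC, a hexamer picked out after the sequence had been seen:
Zfp352: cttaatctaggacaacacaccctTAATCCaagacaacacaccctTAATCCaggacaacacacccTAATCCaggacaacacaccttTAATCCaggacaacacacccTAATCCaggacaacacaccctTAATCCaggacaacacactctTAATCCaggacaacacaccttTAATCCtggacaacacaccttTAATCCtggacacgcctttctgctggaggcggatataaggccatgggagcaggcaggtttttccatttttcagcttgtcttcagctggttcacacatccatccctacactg
The hexamer occurred 9 times on the gene's own strand, from position -227 to position -61 counted from the start, in steps of 20 or 21 bases. Searched on both strands, TAATCC occurred in 7.062% of the 32851 promoters in the table, and the Zfp352 window was the only 1 with as many as 9. The window is thus a short tandem repeat that ends before the start of the gene, and 56 of its 25-base stretches occur in it more than once. The windows of Chit1 (plus strand, chr1:134110992-134111291) and P4ha2 (plus strand, chr11:54100674-54100973) are shown next with the dinucleotide CG in capitals.
Chit1: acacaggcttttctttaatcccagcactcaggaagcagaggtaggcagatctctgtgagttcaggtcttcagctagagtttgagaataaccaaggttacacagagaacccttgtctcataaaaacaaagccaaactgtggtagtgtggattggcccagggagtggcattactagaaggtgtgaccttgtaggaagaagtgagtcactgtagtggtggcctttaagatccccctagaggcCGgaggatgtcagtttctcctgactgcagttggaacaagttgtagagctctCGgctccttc
P4ha2: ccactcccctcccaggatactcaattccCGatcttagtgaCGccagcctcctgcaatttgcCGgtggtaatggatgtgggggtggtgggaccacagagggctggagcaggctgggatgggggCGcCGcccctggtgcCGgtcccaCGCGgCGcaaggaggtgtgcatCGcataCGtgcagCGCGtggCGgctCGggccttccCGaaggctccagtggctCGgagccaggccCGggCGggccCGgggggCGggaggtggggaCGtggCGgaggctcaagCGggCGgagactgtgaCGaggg
The Chit1 window holds 2 CG dinucleotides, as do those of Zfp352 and Cyp2b23. The P4ha2 window holds 26 and that of Ddit4l 14, against a median of 7 over all promoters (quartiles 3 and 20). The 3 genes with 2 CG dinucleotides were at or below 1.29 CPM in every WT library, whereas P4ha2 and Ddit4l were at or above 3.99 CPM in each. A link between CG content and WT level was not tested. The windows of P4ha2 and Ddit4l lie inside their annotated gene bodies, so starts further upstream were not searched. None of the 5 windows held the DUX motif, which occurred in 0.033% of promoters, or the GATA motif AGATAA, which occurred in 11.178%. The CCAAT box (CCAAT, in 37.408% of promoters) was present once in the windows of Chit1 and Cyp2b23. The letters of the TATA box (TATAAA, in 13.616%) occurred once in that of Ddit4l, at position +36, after the annotated start. All were searched on both strands, with no overlap between motifs.

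The seed of miR-34a was searched in the members' transcripts because this microRNA is the one deleted. The mature sequence from RefSeq, with the seed (bases 2 to 8) in capitals, and the 2 matches to its complement CACTGCC are as follows.
miR-34a-5p: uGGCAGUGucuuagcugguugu
Calcoco2 3′ UTR: ctcactgttagCACTGCCtgttctggttt
Cyp2b23 coding sequence: ttccttttcttCACTGCCctccttcagaa
The Calcoco2 match starts at position 1060 of its transcript and the Cyp2b23 match at position 1357, both genes being on the minus strand. Of 13478 tested coding genes, 37.936% held the same 7 bases in any of their annotated coding transcripts. A match in 2 of 8 members is thus not above that background share. The other 6 members, which include the 4 with the highest ratios of KO to WT, held no match.

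Tmem92 (ENSMUSG00000075610, chr11:94777217-94782703, minus strand, GRCm38) encodes a small membrane protein of little known function that is used as a marker of the 2-cell state. It had 32.9, 33.6 and 30.6 CPM in the KO libraries, against 0.0819, 0.25 and 0 CPM in the WT libraries. The 3 KO libraries held 1840 counts and the WT libraries 4. The genotypes did not overlap, and the log2 fold change was 8.49 ± 0.23 (SE of the edgeR fit). From the counts alone the ratio of KO to WT was 395, with an exact 95% interval of 154 to 1450 that covers counting error only. The count filter kept 14717 genes, roughly those at or above 0.564 CPM in at least 3 libraries, and 16 of these had a larger fitted log2 fold change than Tmem92, an order that depends on the prior count at such low WT levels.

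Chit1 (ENSMUSG00000026450, chr1:134111242-134151540, plus strand) encodes chitotriosidase, a secreted enzyme that cleaves chitin and is best known from activated macrophages. Its levels were 20.6, 22.5 and 19.0 CPM in KO and 0.287, 0.625 and 0.579 CPM in WT. The lowest KO library thus lay far above the highest WT library, and the log2 fold change was 5.55 ± 0.19. Of 12 macrophage markers, 3 passed the count filter. The summed level of the list was 17.6 to 20.5 CPM in KO and 9.5 to 16.1 CPM in WT. Most of it was Cd68, a lysosomal protein that other cells also make. Cd68 and Cd14 were called higher in KO (log2 fold changes 0.66 and 1.33, edgeR adjusted p = 0.0011 and 0.011) and Mrc1 was not called; Cd14 passed the filter through KO libraries alone. The defining markers Tyrobp and Adgre1 had 0 counts in every KO library, and Tyrobp also in every WT library. The part of these markers in the Chit1 values was not tested.

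Zfp352 (ENSMUSG00000070902, chr4:90218820-90225702, plus strand) encodes a zinc finger protein transcribed in the 2-cell embryo. It had 4.81, 4.93 and 5.27 CPM in KO libraries, against 0.0819, 0.5 and 0.515 CPM in WT libraries. The log2 fold change was 4.04 ± 0.32. The KO libraries lay within a narrow range, whereas WT replicate 1 was well below the other WT libraries, at 2 counts.

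Arg2 (ENSMUSG00000021125, chr12:79130777-79156301, plus strand) encodes the mitochondrial arginase, which splits arginine into ornithine and urea. It stood at 3.85, 3.46 and 4.53 CPM in KO and at 0.287, 0.375 and 0.322 CPM in WT. The genotypes were separated by a wide gap, with a log2 fold change of 3.58 ± 0.28.

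P4ha2 (ENSMUSG00000018906, chr11:54100095-54131665, plus strand) encodes a catalytic subunit of collagen prolyl 4-hydroxylase, which hydroxylates prolines of newly made collagen chains in the endoplasmic reticulum. Levels were 26.5, 29.0 and 23.8 CPM in KO libraries and 9.67, 9.37 and 9.14 CPM in WT libraries. The log2 fold change was 1.51 ± 0.10, and the KO libraries spread more widely than the WT libraries. Collagen-making fibroblasts also express this gene. Of 16 tested fibroblast markers, 11 were lower in KO and 2 higher, beside 24.0% lower and 26.5% higher over all tested genes. The summed level of that list was 594 to 682 CPM in KO and 781 to 1040 CPM in WT. The part of these markers in the P4ha2 values was not tested.

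Calcoco2 (ENSMUSG00000006056, chr11:96099326-96111964, minus strand) encodes NDP52, a member of a family of autophagy receptors. It was the most abundant of the 8, at 135, 135 and 136 CPM in KO libraries against 59.2, 65.3 and 58.5 CPM in WT libraries. The log2 fold change of 1.16 ± 0.06 was the smallest of the 8, yet the KO and WT ranges lay far apart relative to their spread. The coefficient of variation over the KO lines was 0.697%, below the 2.26% that counting error alone gives on average.

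Ddit4l (ENSMUSG00000046818, chr3:137621612-137628333, plus strand) encodes REDD2, an inhibitor of the growth-controlling kinase complex mTORC1. It had 13.1, 14.1 and 12.9 CPM in KO and 4.55, 5.5 and 3.99 CPM in WT. Every KO library was above every WT library, and the log2 fold change was 1.56 ± 0.13.

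Cyp2b23 (ENSMUSG00000040650, chr7:26665227-26686437, minus strand) encodes a cytochrome P450 of the 2B family, whose better known members oxidise drugs and steroids in liver. Its levels were 3.24, 3.96 and 3.43 CPM in KO libraries, against 1.19, 0.5 and 1.29 CPM in WT libraries. The log2 fold change was 1.71 ± 0.24, and WT replicate 2, the shallowest library, gave the lowest value. Of 10 hepatocyte markers, the defining Alb was at 0.0338 CPM in KO and 0.0137 CPM in WT, and the list summed to 2.2 to 3.14 CPM in KO and 1.16 to 1.5 CPM in WT. Hnf4a, a transcription factor of liver and endoderm, had 0.966 ± 0.182 CPM in KO and 0 in every WT library. It passed the filter through KO libraries alone and so could only be higher. Trf, the other marker that passed the filter, had 1.6 ± 0.44 CPM in KO and 1.12 ± 0.228 CPM in WT (edgeR adjusted p = 0.036). The part of these markers in the Cyp2b23 values was not tested.

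**Figure D1:**
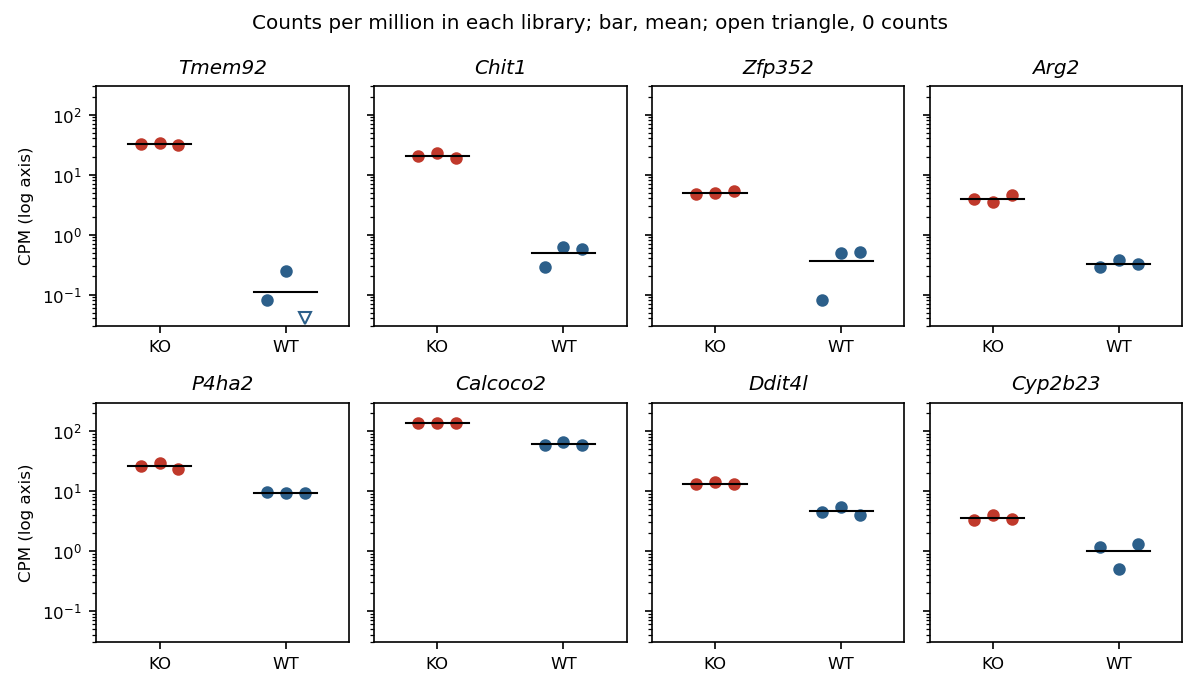
Levels in CPM (log axis) of the 8 genes in the 3 KO libraries (red, left) and 3 WT libraries (blue, right) of each panel. Bars are means and the open triangle is a library with 0 counts. For Tmem92, KO libraries lie between 30.6 and 33.6 CPM and WT libraries at or below 0.25 CPM, and for Calcoco2 KO libraries lie at 135 to 136 CPM and WT libraries between 58.5 and 65.3 CPM.

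In all 8 genes every KO library was above every WT library, which was also so for 29.2% of the 14717 tested genes and was fixed here by the choice of genes. All 8 were at least 2-fold higher in KO by the fit, as were 7.71% of tested genes, or 7.6% when a call by the test was also required. At an adjusted p below 0.05, 50.5% of all tested genes were called in either direction, so the background is high. The median log2 fold change of the 8 members was 2.64 (range 1.16 to 8.49), beside a median of 0.01 over all tested genes. The genes fell into 2 kinds by their WT level. Tmem92, Zfp352 and Arg2 reached the filter level of 0.564 CPM in none of the WT libraries, and Chit1 and Cyp2b23 in only 2 of them, so these 5 passed the filter through their KO libraries. P4ha2, Calcoco2 and Ddit4l were above that level in all 3 WT libraries, and their log2 fold changes, 1.16 to 1.56, were the lowest of the 8. Summed over the 8 genes, KO libraries averaged 240 CPM and WT libraries 77.4 CPM, and Calcoco2 alone made up 45.5% of that difference.

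Per kilobase of the longest coding transcript (RPKM), the order of levels in KO was Calcoco2 (83.5 ± 0.582 RPKM), Tmem92 (15.8), P4ha2 (11.7 ± 1.16), Chit1 (11.4 ± 0.971), Ddit4l (4.9), Arg2 (2.77), Zfp352 (2.2) and Cyp2b23 (1.62). P4ha2 and Chit1 did not differ beyond their spread. In WT the order was Calcoco2 (37.6 ± 2.32 RPKM), P4ha2 (4.15 ± 0.117), Ddit4l (1.72), Cyp2b23 (0.453), Chit1 (0.274), Arg2 (0.23), Zfp352 (0.161) and Tmem92 (0.0541). Tmem92 thus stood last among the 8 in WT and second in KO. P4ha2 has 15 annotated transcripts, and over all its exons together its level was 4.23 RPKM in KO and 1.51 RPKM in WT, which would place it below Ddit4l.

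Within KO, the 8 genes did not share an order over the lines. KO replicate 2 was the highest of the 3 for 5 genes and KO replicate 3 for Zfp352, Arg2 and Calcoco2. MERVL-int, which holds the retroviral genes, was highest in KO replicate 3 and lowest in KO replicate 2. The coefficient of variation over KO lines ranged from 0.697% (Calcoco2) to 13.7% (Arg2), with a median over tested genes of 7.72%.

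MERVL transcripts, which the choice of genes did not use, were measured as repeat families in the same table. MERVL-int had 974, 922 and 1030 CPM in KO libraries, against 51.9, 51.1 and 55.0 CPM in WT libraries (log2 fold change 4.21, edgeR adjusted p = 8e-30). Its long terminal repeat MT2_Mm had 123, 115 and 97.6 CPM in KO, against 19.4, 19.9 and 18.9 CPM in WT (log2 fold change 2.54, adjusted p = 4e-20). Both rose, in 3 of 3 KO lines, while 7.54% of the 756 tested repeat families were called higher and 9.66% lower. The related family MT2B1 rose to 75.6 CPM in KO against 52.2 CPM in WT (0.53, adjusted p = 4.3e-05). MT2C_Mm stood at 20.3 CPM in KO and 20.8 CPM in WT (adjusted p = 0.84), and MERVL_2A-int had a log2 fold change of -0.03 (adjusted p = 0.8). The fitted difference of MERVL-int lay between those of Zfp352 and Chit1, and that of MT2_Mm between those of Cyp2b23 and Arg2.

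**Figure D2:**
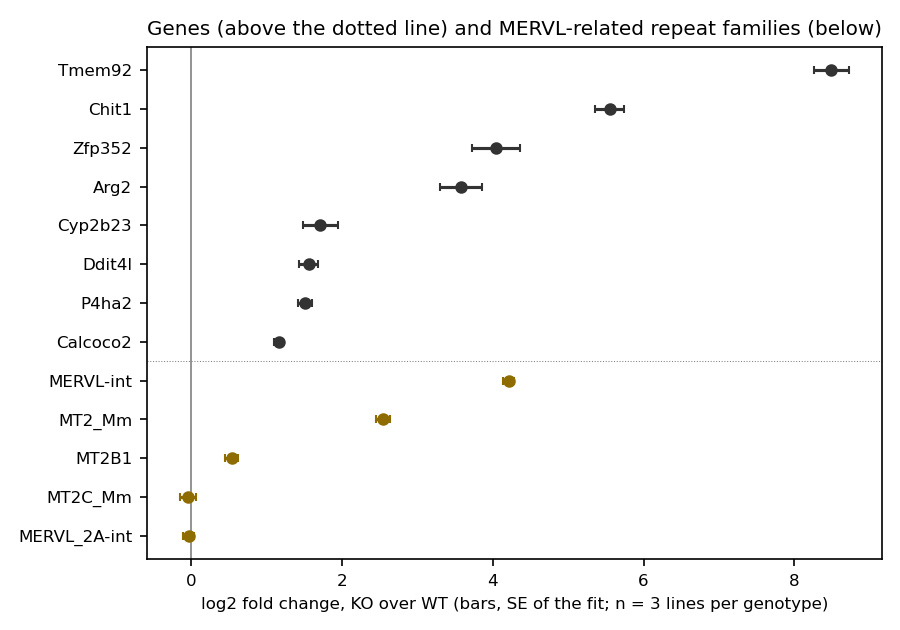
Log2 fold change of KO over WT from the edgeR fit, with its SE, for the 8 genes (black, above the dotted line) and 5 repeat families related to MERVL (brown, below it), n = 3 lines per genotype. The genes range from 1.16 for Calcoco2 to 8.49 for Tmem92, and MERVL-int lies at 4.21 while MT2C_Mm and MERVL_2A-int lie at about 0.

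Other genes of the 2-cell programme also differed in their WT level. Of 49 such genes listed from work on 2-cell-like cells, 44 were matched and 38 passed the filter; 34 of these were called higher in KO (edgeR, adjusted p below 0.05, against 26.5% of all tested genes), 2 lower, and 2 were not called. However, 29 of the 38 reached the filter level in no WT library and so could only be higher; these had a median log2 fold change of 6.72. They include Zscan4c, a zinc finger gene of the telomere-lengthening Zscan4 cluster, at 15.6 ± 1.68 CPM in KO and 0.0351 ± 0.0326 CPM in WT, and Usp17lb, a deubiquitinase of a multicopy family, at 13.1 ± 1.51 CPM in KO and 0.0488 ± 0.0431 CPM in WT. Reads of both families may be split among copies. Of the 8 listed genes that all WT libraries expressed, 4 were higher in KO, 2 lower and 2 were not called, with a median log2 fold change of 0.19. Among them the growth factor gene Fgf1 rose by 2.49 and the retinoid receptor gene Rxra by 0.90 on the log2 scale (adjusted p = 3.7e-09 and 3.2e-09). Dppa4, a chromatin-associated gene of pluripotent cells, stood at 141 ± 8.6 CPM in KO and 138 ± 9.92 CPM in WT (adjusted p = 0.79).

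The 8 genes lie on 6 chromosomes. Tmem92, Calcoco2 and P4ha2 share chromosome 11, the first pair 1316.6 kb apart. Of 25 tested genes within 100 kb of a member, 11 were called higher in KO, 3 lower, and 11 were not called. The neighbourhood of Tmem92 supplied 6 of the 11. Without it, 5 of 19 neighbours (26.3%) were higher and 3 (15.8%) lower, beside 26.5% and 24.0% of all tested genes. Slc22a4, 1 of these 5, passed the filter through KO libraries alone.

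Around Tmem92 lie 6 unprocessed pseudogenes within 100 kb that resemble it, with 91.0 to 97.2% identity to its transcript over alignments of 154 to 179 bases. Gm11543 had 6.84, 7.39 and 5.39 CPM in KO libraries, against 0, 0.125 and 0.0644 CPM in WT libraries, a count ratio of 166 (exact 95% interval 45.5 to 1370). AA623943 averaged 4.15 CPM in KO and had 0 counts in the WT libraries, at least 66.6-fold higher in KO when 3 counts over the WT group are taken as the floor. Together the 6 held 947 counts in KO and 6 in WT. Between 64.1% and 100% of their 50-base stretches were found in no other transcript, so part of their counts may be shared with Tmem92 or with other transcripts. The 5 that passed the filter did so through KO libraries alone and could only be higher. Other genes nearby did not follow this size of difference. Xylt2, a xylosyltransferase gene 99702 bp away, had 41.8 ± 3.62 CPM in KO and 35.1 ± 2.19 CPM in WT (0.26, adjusted p = 0.0078), and Cdc34b, 34184 bp away and between them, had 1 count in each genotype.

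**Figure D3:**
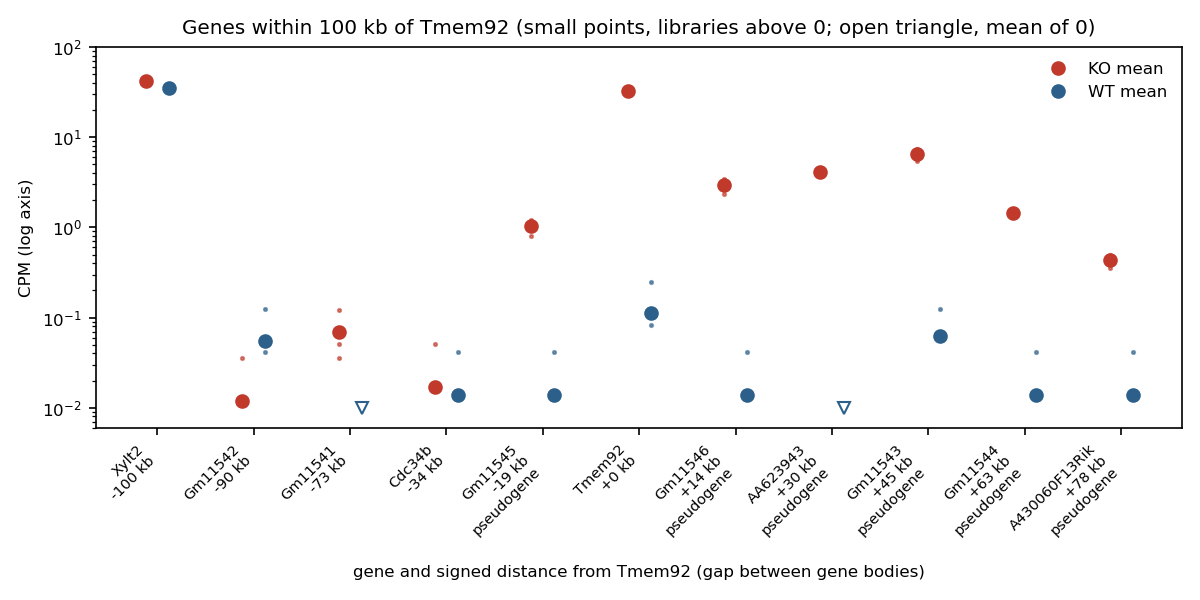
Mean CPM (log axis, large points) in KO (red, left) and WT (blue, right) of the genes within 100 kb of Tmem92, ordered by position and marked with their signed distance in kb. Small points are libraries above 0 and open triangles are means of 0. The pseudogenes on both sides of Tmem92 lie between 0.434 and 6.54 CPM in KO and below 0.1 CPM in WT, while Xylt2 lies at 41.8 CPM in KO and 35.1 CPM in WT.

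Neighbours of the other members moved in both directions. Beside Chit1, the growth-arrest gene Btg2 rose to 84.6 ± 2.74 CPM in KO against 45.9 ± 2.37 CPM in WT (0.87, adjusted p = 8.8e-10), while the chitinase-like gene Chil1 had 1.45 ± 0.275 CPM in KO and 1.91 ± 0.521 CPM in WT (adjusted p = 0.35). Near Arg2, Plekhh1 rose by 0.76 and Zfyve26 by 0.39 on the log2 scale (adjusted p = 1.5e-08 and 3.8e-05), whereas the retinol dehydrogenase gene Rdh11 fell by 0.47 (adjusted p = 3.2e-05). Near Calcoco2, the tubulin-modifying gene Ttll6 rose by 0.85 (adjusted p = 3.1e-06), and Igf2bp1, an RNA-binding protein gene, and Ube2z, a ubiquitin-conjugating enzyme gene, fell by 0.43 and 0.31 (adjusted p = 4.7e-06 and 4.6e-05). Near P4ha2, the cation transporter gene Slc22a4 was at 0.782 ± 0.0926 CPM in KO and 0.233 ± 0.189 CPM in WT (log2 fold change 1.68), a gene that passed the filter through KO libraries alone and so could only be higher. No tested gene lay within 100 kb of Zfp352 or Cyp2b23, and the 1 beside Ddit4l, Gm21962, was not called (-0.35, adjusted p = 0.11).

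Close relatives of the members were not higher to the same degree. The members were chosen from this contrast and the relatives were not, so smaller differences in the relatives follow in part from that choice. The 3 catalytic subunits of collagen prolyl 4-hydroxylase differed. P4ha1 rose slightly, to 9.4 ± 0.69 RPKM in KO against 7.55 ± 0.105 RPKM in WT (0.31, adjusted p = 0.0014). P4ha3 fell to 0.423 ± 0.109 RPKM in KO against 1.17 ± 0.179 RPKM in WT (-1.31, adjusted p = 0.00012). P4ha2 thus made up 54.3 ± 2.89% of the summed RPKM of the 3 in KO and 32.2 ± 0.859% in WT. The cytosolic arginase gene Arg1 had 26 counts over the KO libraries and 17 over the WT libraries, and Arg2 was 91.2 ± 5.99% of the pair in KO and 48.1 ± 4.82% in WT. Calcoco1 had 17.4 ± 1.33 RPKM in KO and 15.8 ± 1.2 RPKM in WT (adjusted p = 0.12), and Tax1bp1, the other receptor of the Calcoco2 family, had 29.6 ± 2.27 RPKM in KO and 32.3 ± 1.12 RPKM in WT (adjusted p = 0.082). Calcoco2 held 64.0 ± 0.359% of the 3 in KO and 43.9 ± 1.38% in WT. Ddit4, which encodes REDD1, rose slightly to 35.6 ± 1.9 RPKM in KO against 30.7 ± 2.26 RPKM in WT (0.21, adjusted p = 0.014) and stayed well above Ddit4l. Chil1, a relative of Chit1 without chitinase activity, had 0.788 ± 0.15 RPKM in KO and 1.04 ± 0.283 RPKM in WT (adjusted p = 0.35), below Chit1 in KO and above it in WT. Chia1, the other active chitinase, had 0 counts in KO and 2 in WT. Chit1 made up 93.5 ± 1.01% of the 3 in KO and 20.2 ± 3.5% in WT. The relatives of Cyp2b23 were near 0, and Cyp2b9, Cyp2b10, Cyp2b13 and Cyp2b19 had between 0 and 4 counts per genotype.

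**Figure D4:**
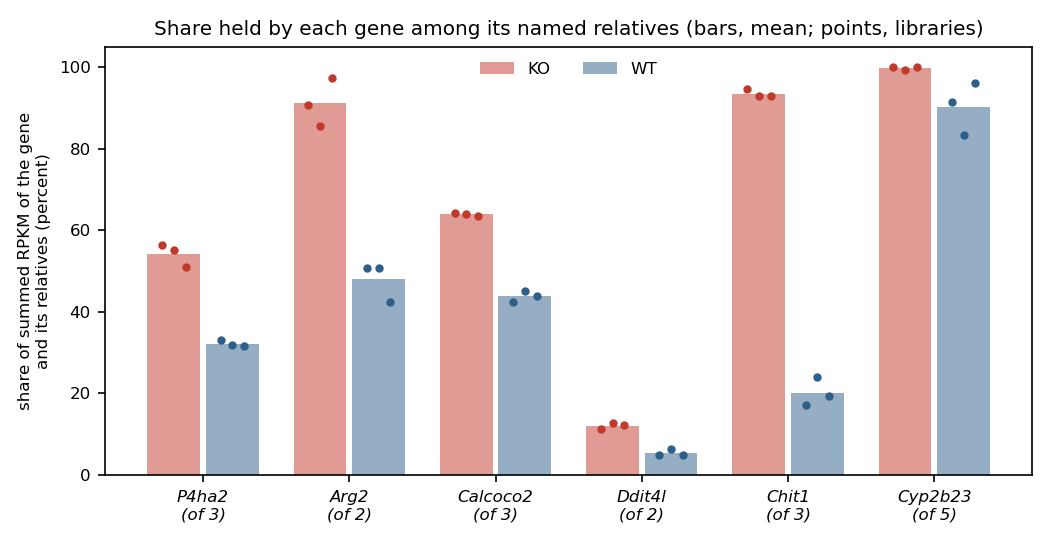
Share (percent) of each of 6 genes in the summed RPKM of the gene and its named relatives, with KO bars (red) left of WT bars (blue); bars are means over 3 libraries and points are libraries. The number in brackets counts the gene and its relatives. The 6 genes were chosen from this contrast, so their larger shares in KO are in part set by that choice. P4ha2 holds 54.3% in KO and 32.2% in WT, and Cyp2b23 holds over 80% in each library of both genotypes.

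Partner genes of the members' pathways moved in both directions. Of 85 matched partners 70 passed the filter, and 29 of these (41.4%) were called higher, 14 (20%) lower and 27 were not called, beside 26.5% higher and 24.0% lower over all tested genes. Their median log2 fold change was 0.14. The median of 2.64 for the 8 members was set in part by their choice from this contrast, so the gap between the medians is not a result.

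In arginine and polyamine metabolism, the setting of Arg2, 9 of 15 tested genes were higher, 5 lower and 1 was not called. Genes that make or import arginine were among those that rose. Ass1, argininosuccinate synthase, had 478, 462 and 484 CPM in KO libraries, against 206, 203 and 206 CPM in WT libraries (1.21, adjusted p = 4.1e-13). The cationic amino acid transporter gene Slc7a1 stood at 95.5 ± 4.35 CPM in KO and 58.1 ± 4.44 CPM in WT (0.72, adjusted p = 2.4e-08). The nitric oxide synthase gene Nos1, whose product also consumes arginine, rose to 27.8 ± 1.3 CPM in KO against 15.2 ± 0.384 CPM in WT (0.86, adjusted p = 4.6e-08). The genes that fell belong to polyamine synthesis, downstream of ornithine. Singled out after their values were seen, these were Odc1 (ornithine decarboxylase), Amd1, Srm and Sms (the synthesis of spermidine and spermine) and Azin1 (a positive regulator of ornithine decarboxylase), which fell by 0.33, 0.74, 0.14, 0.51 and 0.57 on the log2 scale. Odc1, the most abundant of these, had 831 ± 65.7 CPM in KO and 1040 ± 13.6 CPM in WT (adjusted p = 1.6e-04). Sat1, which marks polyamines for breakdown or export, rose by 0.35 (edgeR adjusted p = 2.3e-03). Azin2, a relative of Azin1, rose by 1.16 (edgeR adjusted p = 9.4e-08), so the listed genes around ornithine decarboxylase did not all fall.

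In collagen modification, 8 of 14 tested genes were higher, 2 lower and 4 were not called. P4htm, a transmembrane prolyl 4-hydroxylase that acts on the hypoxia-inducible factor, rose to 9.45 ± 1.18 CPM in KO against 3.65 ± 0.322 CPM in WT (1.44, adjusted p = 8e-08). P3h1 and Crtap, whose proteins belong to the prolyl 3-hydroxylase complex, rose by 0.60 and 0.45 (edgeR adjusted p = 5.8e-07 and 8.8e-06). Ppib, whose protein is also in that complex, was not called (0.13, edgeR adjusted p = 0.064). Serpinh1, the collagen chaperone HSP47, fell by 0.24 (adjusted p = 2.3e-03). Of the collagen genes, those for type I collagen were measured among the fibroblast markers. Col1a1 fell to 127 ± 18.3 CPM in KO against 253 ± 48.6 CPM in WT (-0.99, adjusted p = 0.014), and Col1a2 was at 153 ± 18.9 CPM in KO and 166 ± 31.4 CPM in WT (adjusted p = 0.68).

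Among 14 autophagy receptors and ATG8 proteins, 3 were higher, 1 lower and 10 were not called. Gabarapl2, an ATG8 protein to which such receptors bind, had 143, 144 and 143 CPM in KO libraries and 60.8, 62.2 and 62.2 CPM in WT libraries (1.21, adjusted p = 1e-12). This is close to the values of Calcoco2 itself. The receptor gene Sqstm1 rose by 0.42 (adjusted p = 6.2e-06), and Gabarapl1 fell by 0.26 (adjusted p = 4.1e-03). The receptor genes Nbr1 and Optn were not called (adjusted p = 0.87 and 0.097).

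Around Ddit4l, 5 of 17 tested genes of the TSC-mTORC1 axis were higher, 4 lower and 8 were not called. Sesn2, a leucine sensor that restrains mTORC1, rose to 319 ± 13.6 CPM in KO against 195 ± 1.15 CPM in WT (0.71, adjusted p = 1e-09), and Tsc2, an inhibitor of the pathway, by 0.25 (adjusted p = 5.4e-04). Rps6kb1, the S6 kinase that mTORC1 activates, fell by 0.55 (adjusted p = 3.3e-06). Sesn3, another sestrin, fell by 0.34 (adjusted p = 7.6e-03), so the sestrins did not move together.

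For Chit1, 2 of 5 tested genes of its family and of the breakdown of chitin fragments were higher, 1 lower and 2 not called. Hexa, a lysosomal hexosaminidase gene, rose by 0.31 (adjusted p = 9.2e-04), and Ctbs, chitobiase, fell by 0.66 (adjusted p = 9.8e-03). For Cyp2b23, Por, the reductase that feeds electrons to microsomal P450 enzymes, rose by 0.22 (adjusted p = 5.4e-03), the receptor gene Rxrb fell by 0.17 (adjusted p = 0.023) and Rxrg was not called. The xenobiotic receptor genes Nr1i2 and Nr1i3, which control Cyp2b genes in liver, had mean levels under 0.3 CPM in both genotypes. For Zfp352, the related zinc finger gene Zfp42 (REX1) rose by 0.29 (adjusted p = 2.4e-04) and Yy1 was not called (-0.12, adjusted p = 0.08).

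**Figure D5:**
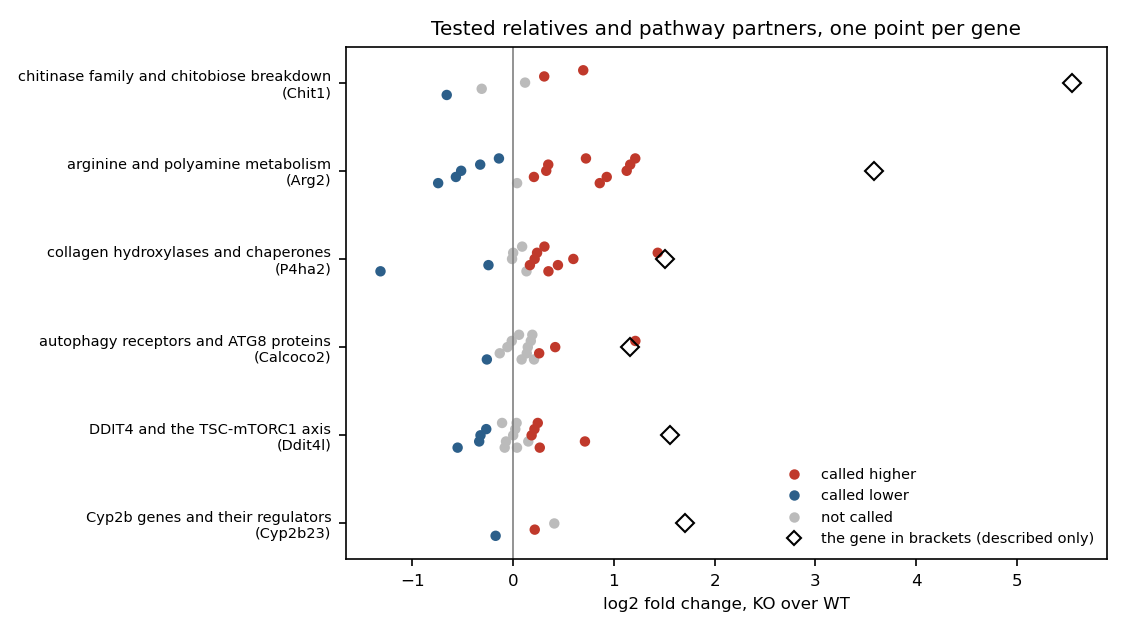
Log2 fold change of KO over WT for the tested genes of 6 pathway lists, 1 point per gene, coloured by the edgeR call (red higher, blue lower, grey not called); the diamond is the member named in brackets, given as a description. The arginine and polyamine list spans from -0.74 (Amd1) to 1.21 (Ass1). The diamonds lie to the right of all points of their list except for Gabarapl2, which lies at 1.21 beside Calcoco2 at 1.16. The members were chosen from this contrast, which in part sets the place of the diamonds.

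Genes with the profile most like each member were sought over the 6 libraries, among 13370 genes with a mean of at least 1 CPM, by the root mean square difference of centred log2 CPM. Tmem92 had no close companion, the nearest being Usp17lc at a distance of 0.641. Chit1 was nearest to Gm11543, a pseudogene beside Tmem92 on another chromosome, at 0.137. Zfp352 was nearest to AU019990 (0.351), and Arg2 to Fthl17c, a ferritin-like gene of the X chromosome (0.0981). The members expressed in WT had many genes near them: 343 genes lay within 0.25 of P4ha2, 673 of Calcoco2 and 248 of Ddit4l, with Pla2g16 (0.0426) the nearest to P4ha2 and Anxa8 (0.0365) the nearest to Calcoco2. Cyp2b23 had 20 within that distance, the nearest being Hydin, a gene of motile cilia (0.0711). The distances use log2 CPM with a prior count of 2, which shrinks differences of genes with few WT counts.

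The GC content of transcripts moved with the genotype difference across tested genes with a mean of at least 1 CPM. The median log2 fold change was -0.22 in the lowest of 10 GC classes and 0.13 in the highest. The 8 members had transcript GC contents of 44.3 to 55.6%, and the classes spanning that range had medians from -0.18 to 0.11. The part of GC content in the members' values was not tested.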

How the data were processed

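Polyadenylated RNA of 3 KO and 3 WT iPSC lines was sequenced. The deposited table holds raw read counts for each of 42290 features, 41388 Ensembl genes and 902 repeat families, which per the labels and the values are not normalized. The build was mm10 and the tools were TopHat2 2.0.11 and featureCounts 1.4.5, per the submitters' processing notes, and the sources used here do not say how reads with several positions were counted. A second table, from a repeat run, was left out because its 6 column names fit none of the samples' labels.

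Symbols and coordinates came from the GENCODE M21 annotation, which named 40254 genes. Counts were converted to CPM with TMM-scaled totals of the gene rows, and to RPKM with the longest coding transcript. Of the genes, 14717 passed filterByExpr and were compared between genotypes with the quasi-likelihood test of edgeR 4.0.16 (R 4.3.3, robust, two-sided, no covariate), with Benjamini-Hochberg adjustment at 0.05 over all of them; repeat families used the gene scaling. The fit was checked on simulated counts. SE is that of the edgeR fit, and SD is over lines. The p-values weigh the difference against the spread between 3 lines per genotype. Every pair of libraries of the same genotype differed by more than sampling noise. In the shallowest library 3 counts equal 0.378 CPM.

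Members and gene lists were chosen with earlier results of these data known. The text names the 8 members, up to 3 genes of each list with the smallest p, their close relatives, called neighbours within 100 kb (at most 3 per member) and the genes nearest in profile. A few genes that this rule names are not reported here. Further list genes were picked after their values were seen to show roles. Uniqueness was planned on the genome and was searched in annotated transcripts instead. Alternatives covered scaling, filters, DESeq2 1.42.0, limma-voom (limma 3.58.1), a replicate block and leaving out each library.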

Additional observations from a re-analysis of the deposited data

How the results depend on the processing

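The 8 genes were higher in KO under each of the 13 alternatives run, with the smallest and largest log2 fold changes at 7.96 and 9.17 for Tmem92, 3.26 and 4.67 for Zfp352 and 1.12 and 1.20 for Calcoco2; the low WT counts set the width for Tmem92 and Zfp352. Counts of called genes ranged from 5918 (DESeq2) to 8010 (no count filter). The labels speak of pairs of lines without saying whether replicate numbers mark them, and same-numbered libraries deviated together weakly or not at all (correlations 0.0885, -0.0198 and 0.11), so the numbers were not used as pairs. With a replicate block, 7833 genes were called against 7433 without it, 33 partners were higher and 15 lower, and no call on a repeat family named here changed. Called partners numbered 22 to 33 higher and 11 to 15 lower over all alternatives. Widening the window from 100 to 500 kb gave 30 higher and 19 lower of 90 tested neighbours. MT2C_Mm, which was not called, was at 0.02 without KO replicate 2 (adjusted p = 0.91), against -0.04 with all libraries, and ranged from -0.13 to 0.02 as single libraries were left out. With stretches of 36 bases in place of 50, unique shares were 83.9% for Zfp352, 83.4% for Calcoco2 and 90.0% for Cyp2b23. RPKM over all exons together, an alternative chosen after seeing the data, was 14.8 for Tmem92, 4.23 for P4ha2 and 4.57 for Ddit4l in KO. Depth limits genes near or under 0.378 CPM, the level of 3 counts in the shallowest library, which touches WT values of Tmem92, Zfp352, Arg2 and Chit1. No sample was tested as an outlier, since groups held 3 libraries.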

Other observations

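Genes of the oocyte and of maternal stores, which precede the 2-cell programme, were mostly near or at 0 in both genotypes: of 27 listed genes, 7 passed the filter. Of these 7, 3 were called higher in KO, 2 lower and 2 were not called, beside 26.5% higher and 24.0% lower over all tested genes. Of the 3 higher, Npm2 and Padi6 passed the filter through KO libraries alone and could only be higher. Ooep, a subunit of the subcortical maternal complex, was the most abundant, at 87.6 ± 1.34 CPM in KO and 60.4 ± 3.58 CPM in WT (log2 fold change 0.53, edgeR adjusted p = 5.9e-07). The histone chaperone gene Npm2 had 1.98 ± 0.537 CPM in KO and 0.384 ± 0.116 CPM in WT (log2 fold change 2.15). Zp3, a zona pellucida protein gene, fell to 4.22 ± 0.269 CPM in KO against 6.78 ± 1.08 CPM in WT (-0.66, adjusted p = 1.5e-03).

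Hypoxia-inducible genes, to which P4ha1 belongs, moved in both directions, with 5 of 18 higher in KO, 3 lower and 10 not called, a share of higher calls close to the 26.5% over all tested genes. Vegfa rose by 0.78 on the log2 scale (adjusted p = 4.5e-08) and Pfkfb4 by 1.06 (adjusted p = 7.4e-06), whereas Pdk1 fell to 121 ± 0.676 CPM in KO against 199 ± 6.55 CPM in WT (-0.73, adjusted p = 7.2e-10).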
